A study of Mus musculus with 15 samples.

Results

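The cytochrome P450 monooxygenase system of mouse lung was followed through 10 transcripts: 8 P450 enzymes (Cyp2f2, Cyp2b10, Cyp2a5, Cyp2s1, Cyp2e1, Cyp4b1, Cyp3a13 and Cyp2j6) and both microsomal electron donors (Por and Cyb5a). The members were the genes with these symbols among 34367 features tested, of which 19271 carried a gene symbol and the rest were unnamed probes. Every probe whose RefSeq accession led to a member symbol was read, which gave 13 probes: 7 members had 1 probe and 3 had 2 (Cyp2b10, Cyp2e1 and Cyp2j6). All 13 probes passed the filter on dim signal and none was saturated on any array.

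The animals were female mice of the outbred Crlj:CD1(ICR) stock, 11 weeks old. They ate powdered diet for 7 days with permethrin, a pyrethroid insecticide, at 20, 500, 2500 or 5000 ppm, or with none of it (0 ppm, the control diet). Each of the 5 diets had 3 mice, and RNA of the lung of each mouse was hybridised to its own 1-colour Agilent array, 15 arrays in all. The labels call the 3 arrays of a diet biological replicates. In an outbred stock each mouse also brings its own genotype, and whole lung holds many cell types, so fewer cells of a type and less RNA per cell cannot be told apart.

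Microsomal P450 enzymes insert an oxygen atom into lipophilic substrates, among them drugs, solvents, steroids and fatty acids. The electrons for this step come from NADPH through cytochrome P450 reductase (Por), and for some reactions also from cytochrome b5 (Cyb5a). In rodent lung much of this activity lies in the club cells, the secretory cells that line the bronchioles, and in liver several of the same genes are known targets of the xenobiotic receptors CAR (Nr1i3) and PXR (Nr1i2).

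Levels are log2 of the processed signal with the 75th percentile of each array set to 0, so a difference of 1 is a factor of 2. Levels of different probes are not on a common scale, and differences are read across arrays. Mean level was still used to choose a gene's probe and to set apart bright features. Between 70.7% and 87.0% of probes were well above background on each array. Of lung cell markers, 9 of 9 club cell, 9 of 9 alveolar type 2 and 7 of 7 alveolar type 1 markers were measured. So were 8 of 8 cardiac muscle, 8 of 9 hepatocyte and 8 of 9 adipocyte markers, and these counts do not identify the tissue. The club cell secretoglobin Scgb1a1 lay between 9.17 and 10.11 on the 15 arrays. Control mouse 1 and 20 ppm mouse 1 stood apart on the second principal component of all features (17.937% of the variance), and 500 ppm mouse 3 and 2500 ppm mouse 3 on the first (36.479%). The scanner output gave 500 ppm mouse 3 and 2500 ppm mouse 3 an extraction status of 1, and every other array 0. The median processed signal was 109 for 500 ppm mouse 3 and 41.3 to 80.6 on the other arrays. The part of this status in the values was not tested. The arrays came from 2 slides: slide 1 held the control arrays, the 20 ppm arrays and 500 ppm mice 1 and 2, and slide 2 held all the others, so that slide and diet cannot be told apart for 2500 or 5000 ppm against control.

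In limma's moderated test, with p-values adjusted by the Benjamini-Hochberg method over all 34367 features, 0 of the 10 members passed the threshold of 0.05 in any comparison. At 5000 ppm against control 14 features passed, which is 0.0407% of those tested, and 3 members had an unadjusted p under 0.05 (Cyb5a, Cyp2a5 and Cyp2s1) against 5.14% of all features. At that dose 9 of 10 members lay above control by their means, with a median difference of 0.34, beside 60.7% and 0.07 for all features. The levels on every array of 5000 ppm exceeded those on every control array for 7 members (Cyp2f2, Cyp2b10, Cyp2a5, Cyp2s1, Cyp4b1, Por and Cyb5a), where 12.9% of all features did so, and lay below them for 1 member (Cyp2j6; 4.98% of all features).

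Those 7 members are also the 7 with a mean level above 4, and bright features as a class lay above control at 5000 ppm. Among the 2502 features with a mean level above 4, 86.0% had a positive difference, the median was 0.19, and 27.5% had all 3 arrays above all 3 controls. After quantile normalization, which gives every array the same distribution of signal, 2 of the 7 members (Cyp2a5 and Cyb5a) still had every array of 5000 ppm above every control array. The count of 7 therefore shifts with the scaling, and single differences are given below with their 95% intervals.

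**Figure D1:**
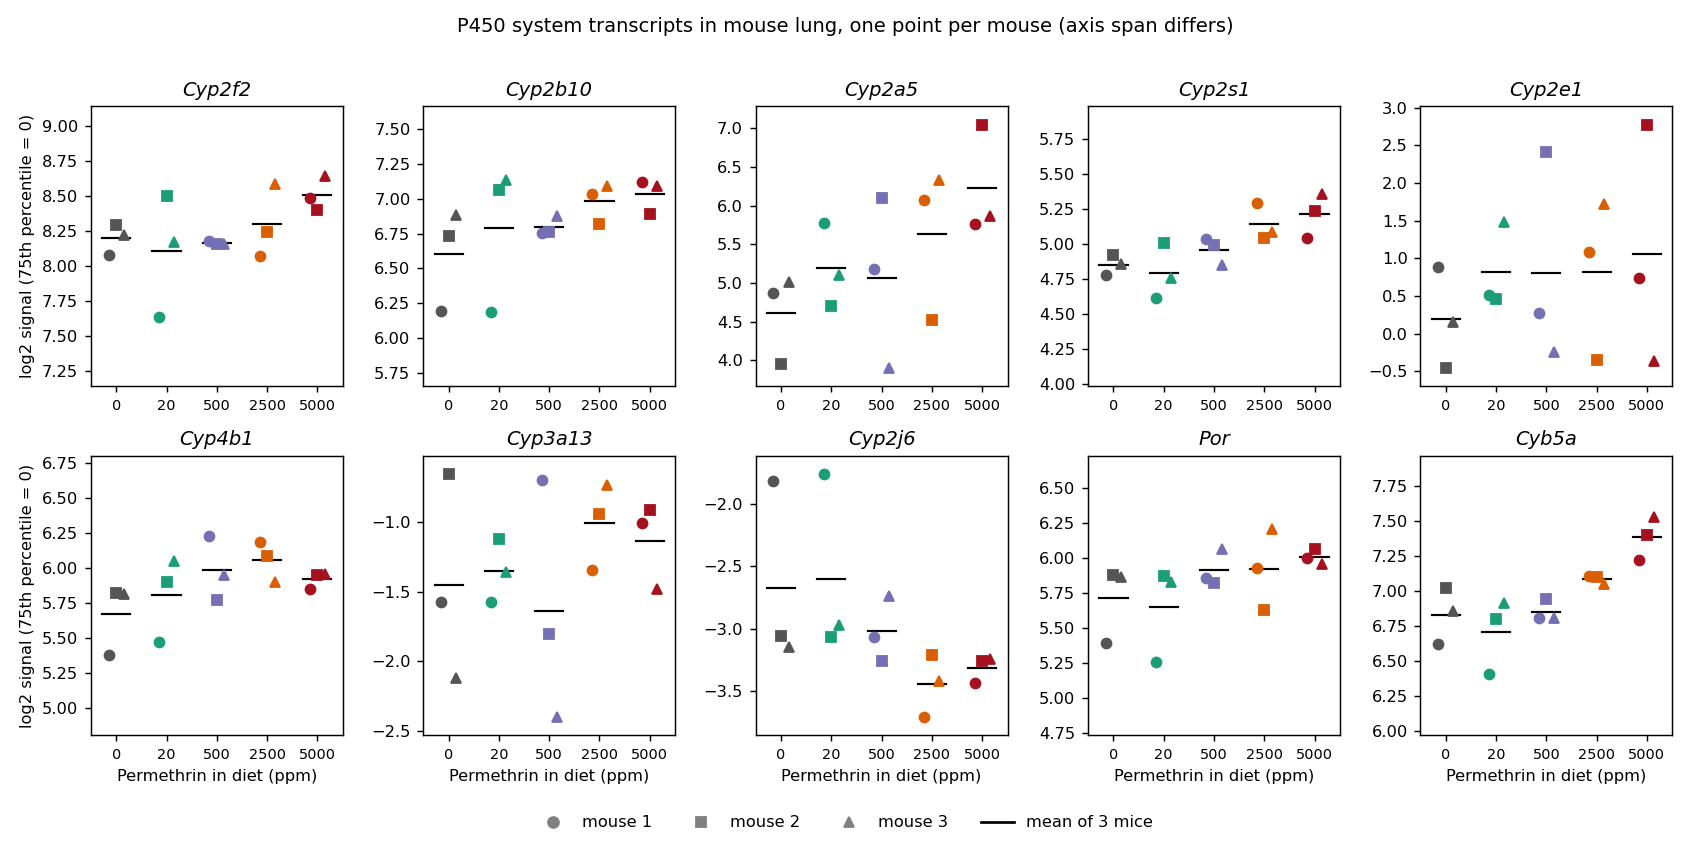
Level of each of the 10 transcripts (log2 signal, 75th percentile of each array at 0) by permethrin in the diet (ppm, categories not to scale), with 1 point per mouse, marker shape for the mouse number and a bar for the mean of 3 mice. The vertical span differs between panels. Cyb5a and Cyp2s1 were tightest within a diet, whereas Cyp2a5 and Cyp2e1 ran over 8.86-fold and 9.39-fold across the 15 arrays.

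**Figure D2:**
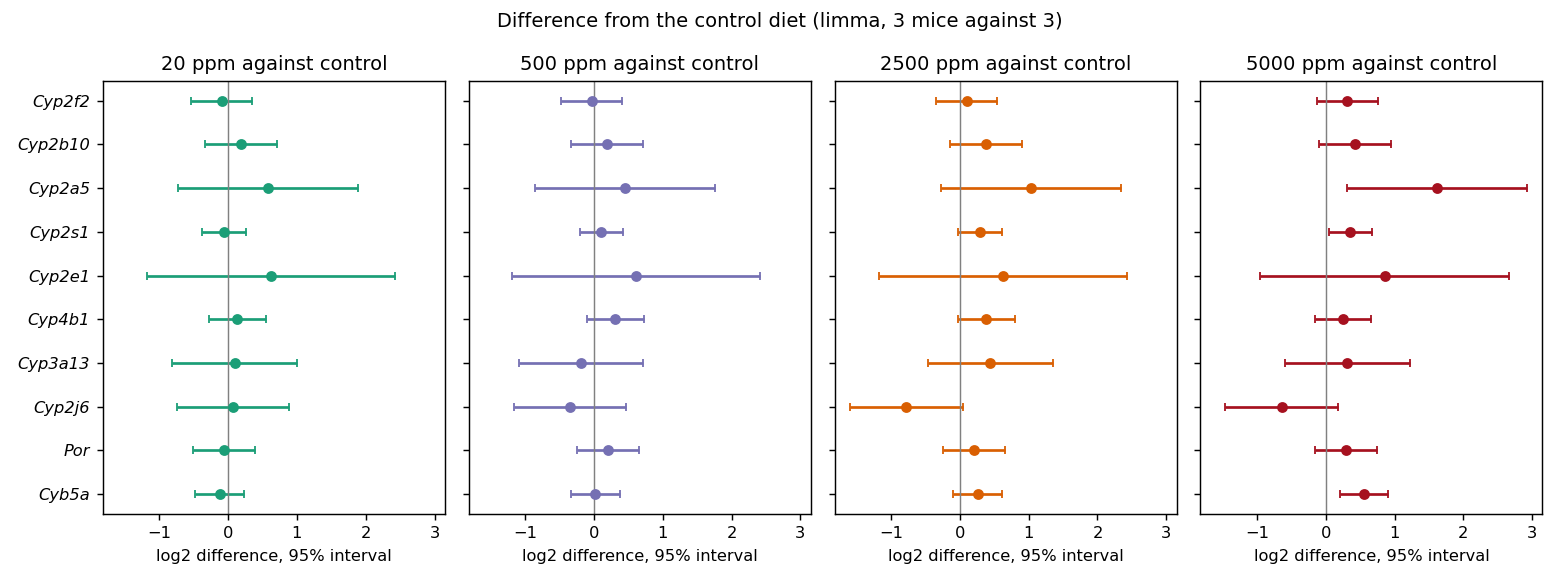
Difference of each dose from the control diet on the log2 scale (points) with limma's unadjusted 95% interval (bars), 3 mice against 3, with all 4 panels on 1 scale. At 5000 ppm the intervals of Cyp2a5, Cyp2s1 and Cyb5a lie above 0, and those of the other 7 members span 0.

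The start of 4 genes is shown because their transcripts formed the pairs described further on: Cyp2a5 with Cyp2e1, and Cyp2b10 with Por. Each stretch is the 250 bases before the RefSeq transcription start in GRCm38.p6, written 5′ to 3′ on the gene's own strand (plus in all 4). They are Cyp2a5 (chr7:26835089-26835338), Cyp2e1 (chr7:140763569-140763818), Cyp2b10 (chr7:25897408-25897657) and Por (chr5:135688895-135689144). Capitals mark matches, on either strand, to 4 motifs (a match on the other strand shows its complement): the TATA box TATAAA, the C/EBP motif TTGCNNAA, the aryl hydrocarbon receptor core GCGTG and the NKX2-1 motif CTCAAG.
Cyp2a5: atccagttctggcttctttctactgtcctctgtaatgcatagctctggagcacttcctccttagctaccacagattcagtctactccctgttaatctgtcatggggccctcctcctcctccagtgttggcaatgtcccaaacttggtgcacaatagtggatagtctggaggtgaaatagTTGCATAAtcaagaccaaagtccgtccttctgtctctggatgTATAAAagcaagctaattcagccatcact
Cyp2e1: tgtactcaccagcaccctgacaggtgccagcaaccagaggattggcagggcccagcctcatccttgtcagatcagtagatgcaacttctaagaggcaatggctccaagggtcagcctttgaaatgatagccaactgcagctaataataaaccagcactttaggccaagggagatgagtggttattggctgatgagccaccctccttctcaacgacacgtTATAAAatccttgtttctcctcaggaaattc
Cyp2b10: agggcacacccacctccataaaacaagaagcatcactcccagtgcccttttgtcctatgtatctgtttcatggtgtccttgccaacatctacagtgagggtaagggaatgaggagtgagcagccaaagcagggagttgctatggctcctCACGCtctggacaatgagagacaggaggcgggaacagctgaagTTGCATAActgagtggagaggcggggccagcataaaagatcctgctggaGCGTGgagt
Por: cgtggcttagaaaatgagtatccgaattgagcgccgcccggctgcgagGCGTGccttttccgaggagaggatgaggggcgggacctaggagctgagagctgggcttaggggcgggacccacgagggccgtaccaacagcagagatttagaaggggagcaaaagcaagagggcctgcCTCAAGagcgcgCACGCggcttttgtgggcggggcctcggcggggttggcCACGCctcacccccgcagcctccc

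Cyp2a5 and Cyp2e1 each held TATAAA, starting at base -29 and at base -31 from the start, and it was found in none of the other 7 member promoters read (12.4% of 32851 RefSeq promoters of this length hold it). Cyp2a5 and Cyp2b10 shared the same C/EBP match, TTGCATAA, at base -71 and at base -58 (motif in 9.56% of promoters). Cyp2b10 held GCGTG at 2 places and Por at 3 (28.2% of promoters), and Por alone among the 9 held CTCAAG (13.3%). No match was found in any of the 9 for the FOXA motif TGTTTAC (3.17% of promoters), the HNF1 motif (0.0548%), the NRF2 core TGACNNNGC (10.2%) or the nuclear receptor repeat DR4 (0.0152%). These are letter matches in 250 bases, not sites of binding. The promoter table held 9 of 10 members, all but Cyb5a. 5 members lie on chromosome 7 (Cyp2f2, Cyp2b10, Cyp2a5, Cyp2s1 and Cyp2e1).

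Cyp2f2, the club cell P450 known for turning naphthalene into its toxic epoxide, ran over a factor of 2.01 across the 15 arrays. Its levels were 8.08, 8.29 and 8.22 in control mice 1 to 3, 7.64, 8.50 and 8.17 at 20 ppm, 8.18, 8.16 and 8.16 at 500 ppm, 8.07, 8.24 and 8.59 at 2500 ppm, and 8.49, 8.40 and 8.65 at 5000 ppm. The 5000 ppm arrays lay above all controls by a narrow margin, and 20 ppm mouse 1 was lowest of all. The difference at 5000 ppm was 0.31 ± 0.20 (SE, 3 mice against 3; adjusted p = 0.966, limma), a factor of 1.24, with a 95% interval from -0.13 to 0.76. Under quantile normalization this difference was 0.087.

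Scgb1a1, the defining club cell product, was likewise above all controls at 5000 ppm: 9.41, 9.72 and 9.61 in controls and 9.87, 9.89 and 9.93 at 5000 ppm, a difference of 0.32 ± 0.20 (adjusted p = 0.966, limma). So were 12.9% of all features and 27.5% of those with a mean level above 4. The summed signal of the 9 club cell markers ran from 1773 to 2072 times the 75th percentile in controls and from 2310 to 2800 at 5000 ppm, without overlap. It ran from 1442 to 2274 at 20 ppm, 1852 to 2389 at 500 ppm and 1803 to 4025 at 2500 ppm. The value of 4025, in 2500 ppm mouse 3, was the highest of all arrays. The brightest markers, Scgb1a1 among them, weigh most in this sum. The mean log2 level of the 9 markers, in which each counts alike, did overlap: 3.74 to 5.20 in controls and 4.12 to 6.17 at 5000 ppm. Of these 9 markers 7 had a positive difference at 5000 ppm, with a median of 0.24 and none past the threshold, beside 60.7% and 0.07 for all features. Of the 7 ciliated cell markers 5 were positive, with a median of 0.19, and 2 had an unadjusted p under 0.05 (5.14% of all features). Among those 7 Foxj1, the factor that drives multiciliated cells, differed by -0.07 ± 0.30 (adjusted p = 0.984, limma). The part of club cell content in the P450 values was not tested.

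Cyp2b10, the classical CAR target of mouse liver, read differently through its 2 probes. On probe A_55_P2044653, used as the gene's value, levels were 6.20, 6.73 and 6.88 in controls, 6.19, 7.06 and 7.13 at 20 ppm, 6.75, 6.76 and 6.87 at 500 ppm, 7.03, 6.82 and 7.09 at 2500 ppm, and 7.12, 6.89 and 7.09 at 5000 ppm. On probe A_52_P472486 they were 1.88, 0.37 and 0.18 in controls, 1.99, 0.87 and 0.63 at 20 ppm, between 0.23 and 0.49 at 500 ppm, between 0.25 and 0.49 at 2500 ppm, and 0.59, 0.02 and 0.53 at 5000 ppm. Control mouse 1 and 20 ppm mouse 1 were lowest on the former and highest on the latter.

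The differences at 5000 ppm were opposite in sign, 0.43 ± 0.24 (adjusted p = 0.964, limma) on the former probe and -0.43 ± 0.42 on the latter (adjusted p = 0.979, every probe tested as its own feature). The interval of the former ran from -0.10 to 0.95, so a difference of a factor of 2 lies just outside it. The mean of both probes differed by -0.0032. The former probe's difference was 0.22 without the 4 arrays that stood apart, of which this comparison uses control mouse 1 alone. Under quantile normalization it was 0.24. CAR itself (Nr1i3) differed by -0.28 ± 0.23 at 5000 ppm and PXR (Nr1i2) by 0.18 ± 0.40 (adjusted p = 0.966 and 0.973, limma).

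Cyp2a5, the mouse coumarin hydroxylase, which also acts on nicotine and nitrosamines, had the largest difference of the 10 members at 5000 ppm. Its levels were 4.86, 3.95 and 5.01 in controls, 5.77, 4.70 and 5.10 at 20 ppm, 5.18, 6.09 and 3.90 at 500 ppm, 6.08, 4.51 and 6.33 at 2500 ppm, and 5.76, 7.05 and 5.87 at 5000 ppm. All 5000 ppm mice lay above all controls, whereas every other dose had at least 1 mouse at or below the highest control. The difference at 5000 ppm was 1.62 ± 0.60, a factor of 3.07 (95% interval 0.31 to 2.92; unadjusted p = 0.0191, adjusted p = 0.891, limma), and 1.21 without 5000 ppm mouse 2.

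At 2500 ppm Cyp2a5 differed from control by 1.03 ± 0.60, and over the 5 dose ranks it had a slope of 0.37 ± 0.13 per step (adjusted p = 0.461, limma). Spread within a diet was wide: the pooled SD was 0.81, at percentile 92.5 of all features. With slide as a fixed block the difference at 5000 ppm became 3.36 and passed (adjusted p = 0.0292, limma), but in that fit only 500 ppm mouse 3 ties the slides, and it had the lowest Cyp2a5 of the 15 arrays and stood apart on all features. That fit also called 71 features higher and 4871 lower at 5000 ppm.

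The pattern across arrays most like that of Cyp2a5 was Cyp2a4, its close paralog (r = 0.967 over 15 arrays), whose probe may share signal with that of Cyp2a5. Cyp2a4 read 3.88, 2.83 and 3.82 in controls and 4.77, 6.22 and 4.84 at 5000 ppm, again without overlap (12.9% of all features lay above control in this way). In the same way Cyp2b10 was most like its paralog Cyp2b9 (r = 0.976). These are descriptions over the same libraries, and the paralogs are no independent readings.

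Cyp2s1, a P450 of epithelia outside the liver, was the steadiest member, with a pooled SD within a diet of 0.140 (percentile 4.58 of all features). Its levels were 4.78, 4.92 and 4.85 in controls, 4.61, 5.01 and 4.75 at 20 ppm, 5.04, 4.99 and 4.85 at 500 ppm, 5.29, 5.04 and 5.08 at 2500 ppm, and 5.04, 5.23 and 5.36 at 5000 ppm. Both upper doses lay above all controls and overlapped each other. The difference was 0.29 ± 0.15 at 2500 ppm (adjusted p = 0.645, limma) and 0.36 ± 0.15 at 5000 ppm, where its interval ran from 0.04 to 0.68 (unadjusted p = 0.0290, adjusted p = 0.931). Under quantile normalization the latter was 0.21. The slope over dose ranks was 0.11 ± 0.03 per step (unadjusted p = 0.00629, adjusted p = 0.346).

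Cyp2e1, the ethanol-inducible P450 that oxidises small solvents, varied between mice more than between diets. On the probe used for the gene, levels were 0.88, -0.46 and 0.15 in controls, 0.51, 0.46 and 1.48 at 20 ppm, 0.27, 2.41 and -0.25 at 500 ppm, 1.08, -0.35 and 1.72 at 2500 ppm, and 0.73, 2.78 and -0.36 at 5000 ppm. The highest values belonged to 5000 ppm mouse 2, 500 ppm mouse 2 and 2500 ppm mouse 3, and all diets overlapped. Diet held 8.77% of its variance, and the pooled SD within a diet was 1.13, at percentile 98.9 of all features. The other probe gave the same top 2 arrays, at -0.71 and -0.98.

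The difference at 5000 ppm was 0.86 ± 0.83 (95% interval -0.95 to 2.66; adjusted p = 0.970, limma). It rested on 5000 ppm mouse 2: without that array it was -0.0066.

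Cyp2e1 is also expressed in liver and fat, and markers of both tissues varied on these arrays. Of 9 adipocyte markers 8 were measured (Ucp1 was not). Their mean level was 2.18 in 500 ppm mouse 2, 2.01 in 2500 ppm mouse 3 and 2.13 in 5000 ppm mouse 2, against -1.94 to 0.34 on the other 12 arrays. Those 3 arrays are the same that held the highest Cyp2e1 and the highest Cyp2a5 levels. The adipokine Adipoq read 2.46, 1.83 and 2.16 there and at most -0.26 elsewhere.

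As summed signal, the adipocyte markers ran from 5.64 to 23.7 in controls, 4.95 to 16.3 at 20 ppm, 6.68 to 143 at 500 ppm, 5.71 to 73.2 at 2500 ppm and 4.60 to 124 at 5000 ppm. The same 3 arrays were also highest in some of the 9 club cell markers: Scgb3a1 (8.18, 9.50 and 8.30, against at most 6.64), Bpifa1 (4.52, 6.54 and 4.63, against at most 1.66), Muc5b and Lypd2. They were not in Scgb1a1 of the same list, which read 9.59 in 500 ppm mouse 2 and 9.83 in 20 ppm mouse 2. By mean level the same 3 arrays were highest, too, for the 8 cardiac muscle markers (3.24, 3.50 and 3.37, against at most 2.94) and the 7 ciliated cell markers (1.94, 2.28 and 2.19, against at most 1.86). As summed signal neither list had all 3 of these arrays on top. The ciliated cell markers gave 147 in 500 ppm mouse 2 and 163 in 20 ppm mouse 2. In these mice the cardiac muscle markers gave 178 and 181, in the same order. Summed, the cardiac markers ran from 16.0 to 90.6 in controls, 47.8 to 181 at 20 ppm, 75.9 to 178 at 500 ppm, 7.33 to 254 at 2500 ppm and 42.2 to 184 at 5000 ppm. The part of any of these tissues in the P450 values was not tested.

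Of 9 hepatocyte markers 8 were measured (Cyp1a2 was not). Their summed signal ran from 5.34 to 27.6 in controls, 10.6 to 46.4 at 20 ppm, 1.55 to 17.2 at 500 ppm, 2.93 to 28.9 at 2500 ppm and 7.51 to 20.3 at 5000 ppm. Albumin (Alb) was highest in 20 ppm mouse 3, at 4.83, which was also the mouse with the highest Cyp2e1 outside the 3 arrays above, at 1.48. It was lowest, at -0.48, in 500 ppm mouse 2, where Cyp2e1 was 2.41. The part of liver RNA in the Cyp2e1 values was not tested.

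**Figure D3:**
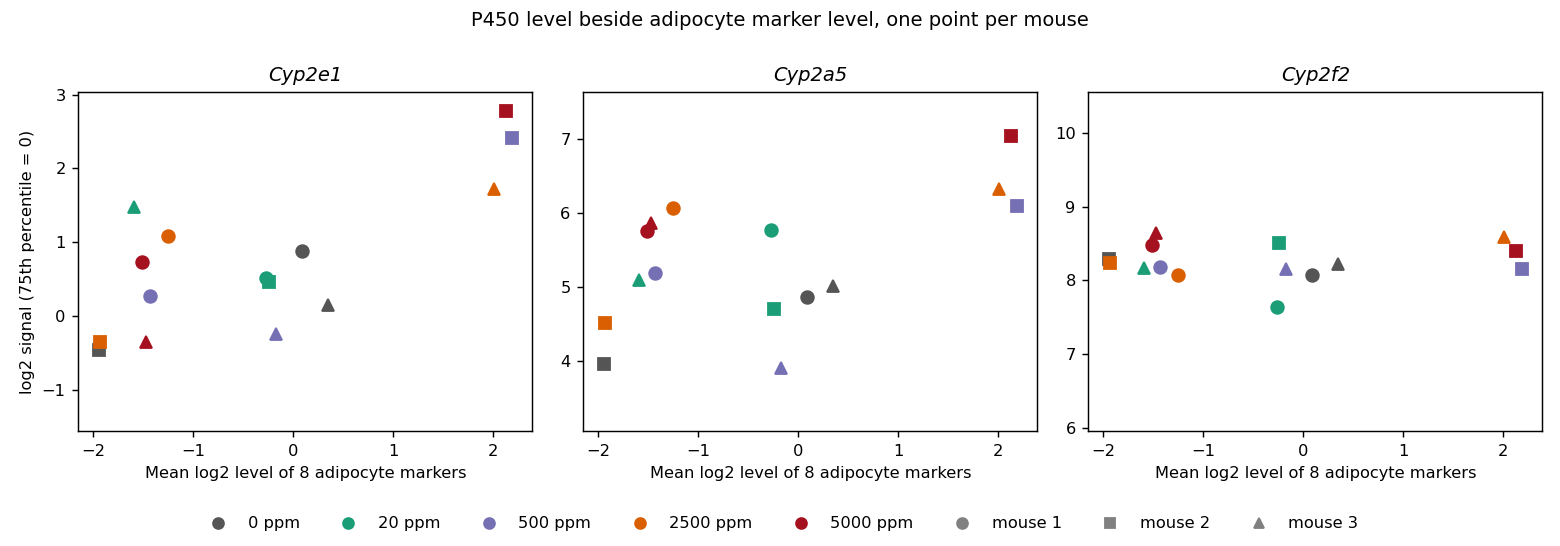
Level of Cyp2e1, Cyp2a5 and Cyp2f2 (vertical axes, log2 signal, each panel spanning the same number of log2 units) against the mean level of 8 adipocyte markers (horizontal axes, log2 signal), 1 point per mouse, colour for diet and shape for mouse number. The 3 arrays at the right (500 ppm mouse 2, 2500 ppm mouse 3 and 5000 ppm mouse 2) are the highest for Cyp2e1 and Cyp2a5 and within the range of the others for Cyp2f2.

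Cyp4b1, a lung-rich P450 that activates the plant toxin ipomeanol, read 5.38, 5.82 and 5.82 in controls, 5.47, 5.90 and 6.05 at 20 ppm, 6.23, 5.77 and 5.95 at 500 ppm, 6.19, 6.09 and 5.90 at 2500 ppm, and 5.85, 5.95 and 5.96 at 5000 ppm. Control mouse 1 and 20 ppm mouse 1 were lowest, and the 2500 and 5000 ppm arrays all lay above the controls. Its difference peaked at 2500 ppm, 0.39 ± 0.19 (adjusted p = 0.633, limma), and was 0.25 ± 0.19 at 5000 ppm, with an interval from -0.16 to 0.66. Without the 4 arrays that stood apart, of which this comparison uses control mouse 1 alone, the latter was 0.10. Under quantile normalization it was 0.08.

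Cyp3a13, a mouse CYP3A enzyme expressed outside the liver as well as in it, read -1.57, -0.65 and -2.12 in controls, -1.57, -1.12 and -1.36 at 20 ppm, -0.69, -1.81 and -2.40 at 500 ppm, -1.34, -0.94 and -0.73 at 2500 ppm, and -1.0, -0.91 and -1.48 at 5000 ppm. The controls alone spanned nearly the whole range, and every dose overlapped them. The difference at 5000 ppm was 0.32 ± 0.42 (adjusted p = 0.970, limma), with an interval from -0.59 to 1.22, and without control mouse 3 it was -0.020.

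Cyp2j6, of the CYP2J group of fatty acid epoxygenases, was the single member that lay below control at the upper doses. On the probe used for the gene it read -1.81, -3.06 and -3.15 in controls, -1.76, -3.07 and -2.98 at 20 ppm, -3.07, -3.26 and -2.74 at 500 ppm, -3.71, -3.21 and -3.42 at 2500 ppm, and -3.44, -3.26 and -3.25 at 5000 ppm. Control mouse 1 and 20 ppm mouse 1 were far above all other arrays, and the 2500 and 5000 ppm arrays lay just below the lowest control.

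The Cyp2j6 difference was -0.78 ± 0.38 at 2500 ppm (unadjusted p = 0.0610, adjusted p = 0.626, limma) and -0.64 ± 0.38 at 5000 ppm (interval -1.46 to 0.18; adjusted p = 0.964). Both rested on control mouse 1, without which they were -0.35 and -0.21. The other probe was well above background on 10 of 15 arrays and differed by -0.33 ± 0.33 at 5000 ppm.

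Por, the reductase that feeds electrons to every microsomal P450, read 5.39, 5.88 and 5.87 in controls, 5.26, 5.87 and 5.83 at 20 ppm, 5.86, 5.82 and 6.07 at 500 ppm, 5.93, 5.63 and 6.21 at 2500 ppm, and 6.0, 6.07 and 5.96 at 5000 ppm. The 2 lowest arrays were again control mouse 1 and 20 ppm mouse 1, and the lowest 5000 ppm array lay above the highest control by less than 0.10. The difference at 5000 ppm was 0.30 ± 0.21 (interval -0.15 to 0.74; adjusted p = 0.966, limma). It was 0.14 without the 4 arrays that stood apart, of which this comparison uses control mouse 1 alone. Under quantile normalization it was 0.13, and with slide as a fixed block 0.07.

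Cyb5a, cytochrome b5, which hands an electron to P450 enzymes and to fatty acid desaturases, varied with diet more than any other member. It read 6.62, 7.02 and 6.85 in controls, 6.40, 6.80 and 6.91 at 20 ppm, 6.80, 6.94 and 6.81 at 500 ppm, 7.11, 7.10 and 7.05 at 2500 ppm, and 7.22, 7.40 and 7.53 at 5000 ppm. The controls, 20 ppm and 500 ppm overlapped, all 2500 ppm arrays lay above them, and all 5000 ppm arrays lay above those of 2500 ppm. Of all features 8.79% lay above control in this way at 2500 ppm, and 8.17% lay above 2500 ppm at 5000 ppm. The lowest 2500 ppm array, at 7.05, was just above the highest control, at 7.02. With the array median as the scale, 0 members, Cyb5a included, had every 2500 ppm array above every control. The share of variance held by diet was the largest of the 10 members, ahead of Cyp2s1 at 66.9%.

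The Cyb5a difference from control was 0.26 ± 0.16 at 2500 ppm (adjusted p = 0.750, limma) and 0.55 ± 0.16 at 5000 ppm, a factor of 1.47 (interval 0.20 to 0.90; unadjusted p = 0.00484, adjusted p = 0.679). Its slope over the dose ranks was 0.15 ± 0.04 per step (unadjusted p = 0.00133, adjusted p = 0.203). With arrays weighted by their quality the slope was 0.12 and passed (adjusted p = 0.0345, limma), in a fit that called 747 features on the slope where the unweighted fit called 49. Under quantile normalization the difference at 5000 ppm was 0.36.

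Against control at 2500 ppm, 0 of 10 members and 0% of features passed limma's test, and 0 members had an unadjusted p under 0.05 (8.49% of all features). Every 2500 ppm array exceeded every control array for 3 members (Cyp2s1, Cyp4b1 and Cyb5a; 8.79% of all features) and lay below them for 1 (Cyp2j6; 4.74%). The median difference of the 10 members was 0.33, beside 0.05 for all features and 0.05 for those with a mean level above 4.

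At 500 ppm the members' differences from control ran from -0.35 (Cyp2j6) to 0.62 (Cyp2e1), and at 20 ppm from -0.12 (Cyb5a) to 0.62 (Cyp2e1). In neither did a member, by the probe used for the gene, pass limma's test (0% of features), reach an unadjusted p under 0.05 (2.83% and 1.47% of features) or separate from the controls. The other Cyp2j6 probe differed by -0.73 ± 0.33 at 500 ppm (adjusted p = 0.944, limma, every probe tested as its own feature), with an unadjusted p under 0.05. All 3 arrays lay above all 3 controls for 4.55% of features at 500 ppm and 1.5% at 20 ppm, and below them for 2.14% and 4.33%. The 4 comparisons with control share the same 3 control arrays, 1 of which stood apart.

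Between 5000 and 2500 ppm, all on slide 2, 0 members passed (0% of features) and 0 had an unadjusted p under 0.05 (5.03% of features). Cyb5a was the 1 member whose arrays did not overlap, higher at 5000 ppm by 0.29 ± 0.16 (unadjusted p = 0.0922; 8.17% of features were above in this way). For the slope over the 5 dose ranks 0 members passed (0.143% of features), and 4 had an unadjusted p under 0.05: Cyb5a, Cyp2s1 and Cyp2a5 upward and Cyp2j6 downward, at -0.21 ± 0.08 per step (9.2% of features). Without control mouse 1 the Cyp2j6 slope was -0.13. When all diets were compared at once by limma's F statistic, 0 members passed (0.0407% of features), and Cyb5a alone had an unadjusted p under 0.05 (5.33% of features). Its test in that limma fit had an adjusted p = 0.689.

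Some members varied together across the 15 arrays. Of the 45 pairs 35 had a positive Pearson r, with a median of 0.21. Cyp2s1 and Cyb5a had the highest (r = 0.86), which was 0.64 with diet means removed and 0.74 without the 4 arrays that stood apart. Cyp2a5 and Cyp2e1 stood together at r = 0.75, which was 0.81 with diet means removed and 0.75 without the 4 arrays. Both genes were highest in 5000 ppm mouse 2, 2500 ppm mouse 3 and 500 ppm mouse 2, and only 2500 ppm mouse 3 is among the 4 arrays. How far this r rests on those highest arrays was not tested. Cyp2b10 with Por (r = 0.84) dropped to 0.36 without the 4 arrays, Cyp2b10 with Cyp4b1 (0.73) to 0.07, and Cyp2b10 with Cyp2j6 (-0.87) to -0.25.

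These values share library, slide and scaling, and are given with no test. The latter pairs rest on control mouse 1 and 20 ppm mouse 1, the arrays of lowest Cyp2b10, Por and Cyp4b1 and highest Cyp2j6: over the other 13 arrays r was 0.39 with Por, 0.028 with Cyp4b1 and -0.33 with Cyp2j6. In the same mice the transcription factor Cebpa read 1.70 and 1.86, against -0.65 to 0.19 on the other 13 arrays. Cebpa was picked from the 12 listed regulators after its values were seen. Control mouse 1 and 20 ppm mouse 1 stood apart on all features, and how many other genes differ there in this way was not counted. The part of whatever set those arrays apart was not tested.

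**Figure D4:**
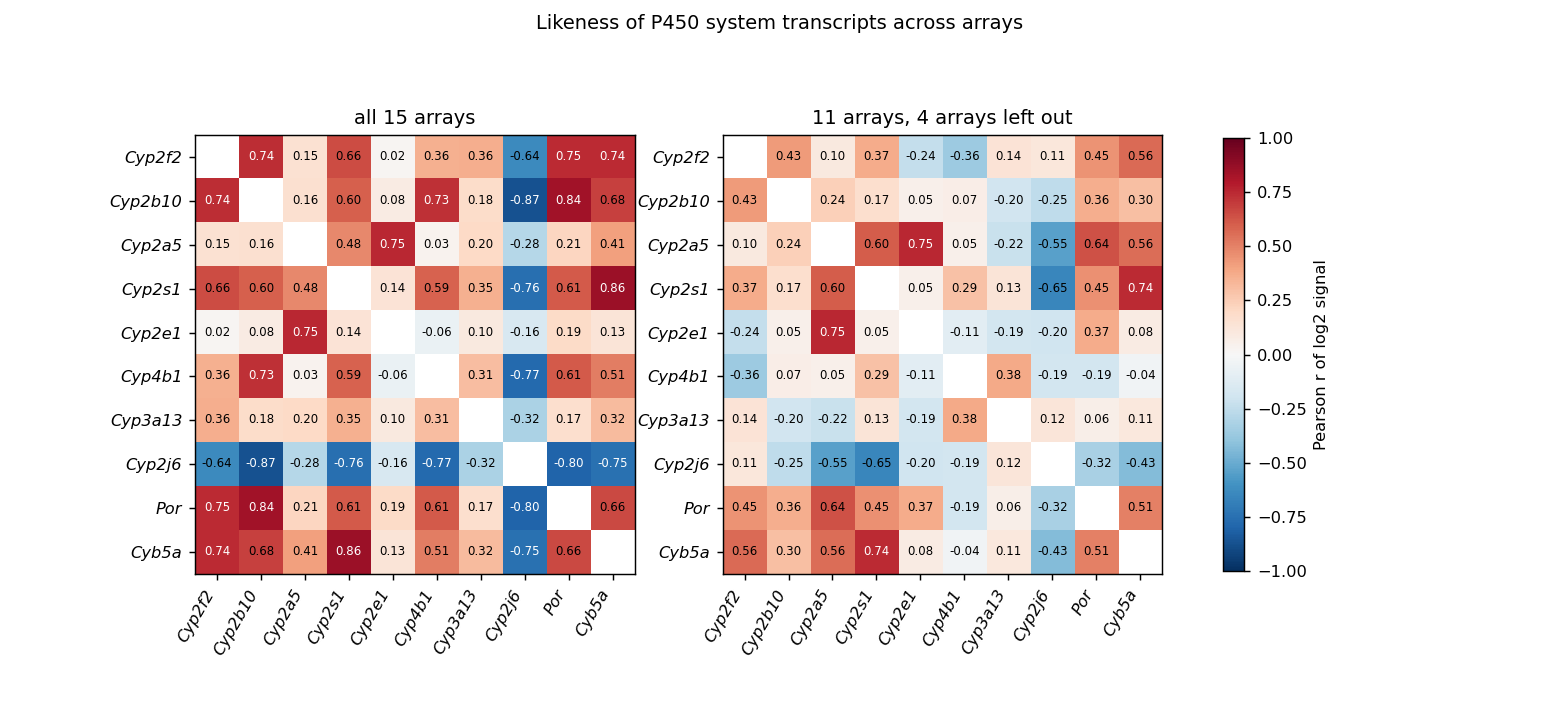
Pearson r between the levels of each pair of members over all 15 arrays (left) and over 11 arrays (right, without control mouse 1, 20 ppm mouse 1, 500 ppm mouse 3 and 2500 ppm mouse 3), with colour and printed value giving r. Cyp2a5 with Cyp2e1 reads 0.75 in both panels, while Cyp2b10 with Por reads 0.84 on the left and 0.36 on the right.

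Among 17022 named genes, those most like each member over the 15 arrays were found by Pearson r. Cyb5a was most like Blvrb, a biliverdin reductase (r = 0.972), then Pir (0.966) and Cisd1 (0.952), and Pir was also the gene most like Cyp2s1 (0.914), followed by Reep6 and the aldehyde dehydrogenase Aldh3b1. Cyp2f2 was most like Milr1 (0.946), and Cyp2e1 most like the soluble epoxide hydrolase Ephx2 (0.886), then Mlxipl. Cyp4b1 was most like Telo2 (0.926) and Cyp3a13 most like Slc35c1 (0.826). For Cyp2j6 the gene was Clns1a (0.961) and for Por it was Dct (0.962). Without the 4 arrays the r of the gene most like each member was lowest for Cyp3a13 (0.684), Cyp2j6 (0.720) and Por (0.735), and at least 0.830 for the others.

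The rest of the P450 system was read from lists chosen for their roles. Of 94 other P450 genes on the array 68 were measured, and none passed limma's test at any dose. At 5000 ppm 5 of the 68 had an unadjusted p under 0.05 (5.14% of all features) and 40 were positive (60.7% of all features). Their median was 0.07, the same as for all features. Cyp39a1, an oxysterol hydroxylase, read 2.24, 2.50 and 2.44 in controls and 2.79, 2.85 and 2.81 at 5000 ppm, a difference of 0.42 ± 0.14 (adjusted p = 0.820, limma).

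Cyp1a1, the typical target of the aryl hydrocarbon receptor, lay the other way. It read -0.99, -1.51 and -1.13 in controls, -1.08, -3.17 and -2.67 at 2500 ppm and -1.86, -2.51 and -2.35 at 5000 ppm. At 5000 ppm it lay below control without overlap (4.98% of all features) and differed by -1.03 ± 0.42 (adjusted p = 0.931, limma). Cyp2j13, of the same subfamily as Cyp2j6, was above control at 2500 ppm by 0.57 ± 0.16 (adjusted p = 0.263) and differed by -0.01 ± 0.16 at 5000 ppm.

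All 9 other electron donors and partners were positive at 5000 ppm, with a median of 0.21, and none passed the test. Of all features 60.7% were positive, with a median of 0.07, and of those with a mean level above 4, 86.0%, with a median of 0.19. Pgrmc1, a heme-binding protein that associates with P450 enzymes, read 3.83, 4.22 and 4.14 in controls and 4.46, 4.44 and 4.60 at 5000 ppm, a difference of 0.44 ± 0.14 (adjusted p = 0.809, limma), and Pgrmc2 differed by 0.27 ± 0.14. Of 8 enzymes of heme synthesis, which supplies the prosthetic group of every P450, 6 were positive, with a median of 0.31 and none past the test. Ppox, which makes protoporphyrin, differed by -0.25 ± 0.14 (adjusted p = 0.964). Of 12 transcriptional regulators of P450 genes 10 were positive, with a median of 0.18, and the largest named difference was that of the fatty acid receptor Ppara (0.42 ± 0.21, adjusted p = 0.964).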

How the data were processed

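Per the labels, Cy3-labelled cRNA was made from total RNA of 15 lungs. The deposited scanner files, written by Agilent Feature Extraction 10.7.3.1 per the file headers, hold background-subtracted signals as linear intensity. The authors' deposited value table holds log2 values, equal on every array to log2 of that signal minus 1 constant. Control and outlying spots were left out, spots of a probe were averaged as log2 values, and each array's 75th percentile was set to 0. Of 56605 probes, 49 with all spots outlying on an array were dropped. Probes well above background in at least 50% of spots on all 3 arrays of a diet were kept (43108), and a gene took its kept probe of highest mean. Symbols and promoters came from RefSeq tables (GRCm38.p6).

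limma 3.58.1 in R 4.3.3 was fitted with 1 coefficient per diet (10 residual degrees of freedom), two-sided, at a threshold of 0.05. The number of arrays limits the precision. The fit was tested on simulated data. The members and lists were chosen with earlier results of these data known. Named beyond the members were the genes most like each member, the 2 genes of smallest F test p in each pathway list, and Nr1i3, Nr1i2, Cyp1a1, Scgb1a1 and Foxj1. Some genes that this rule names are not reported here. Marker genes, Cebpa and the levels of Cyp2a4 were chosen after their values were seen. Alternatives covered background correction (normexp, offset 50), scaling, filters, probe choice, slide and replicate number as blocks, array weights and left-out arrays.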

Additional observations from a re-analysis of the deposited data

How the results depend on the processing

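Across the 7 comparisons, leaving out each of the 15 arrays in turn gave 0 members past the threshold throughout, as in the fit reported, and the same held for the other alternatives run except 2. With slide as a fixed block 1 member passed at 5000 ppm against control (Cyp2a5, 3.36) and 1 over the dose ranks (Cyp2a5, 0.89, adjusted p = 0.0332), in fits that called 4942 and 5495 features. With array weights 1 passed over the dose ranks (Cyb5a) and 1 for any difference among diets (adjusted p = 0.0347). Weighted, those fits called 747 and 1451 features, against 49 and 14 as reported, and 109 against 14 at 5000 ppm. As a random block, slide had a correlation of 0.261 and no member passed.

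The count of members with every 5000 ppm array above every control was 7, and 2 with quantile normalization; with 1 array left out it ran from 7 to 8. At 2500 ppm it was 3, and 1 with normexp, 0 with the array median as the scale, and 3 to 7 with 1 array left out (7 without 2500 ppm mouse 2, fewer arrays making separation easier). These settings were chosen after seeing the data for this count.

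Differences that changed sign all missed the threshold. With the mean of its probes Cyp2b10 was -0.0032 at 5000 ppm and -0.051 at 2500 ppm. Cyp2e1 at 5000 ppm was -0.0066 without the 3 arrays of highest adipocyte marker level, of which that contrast uses 5000 ppm mouse 2 alone, and -0.0066 to 1.56 with 1 array left out; Cyp3a13 was -0.020 to 0.72. At 2500 ppm Cyp2f2 was -0.094 with array weights, -0.10 without the 4 arrays that stood apart, -0.043 without the 3 arrays of highest adipocyte marker level, and -0.043 to 0.22 with 1 array left out. Por at 2500 ppm was -0.017 with slide as a fixed block and -0.095 without the 4 arrays. The causes were not tested.

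With the replicate block, the labels' replicate number as a fixed block, 0 members passed in any of the 7 comparisons. The labels do not say what a number shares. Same-numbered arrays of different diets correlated in their deviations by -0.25 to 0.61 (30 pairs, 9 of them over 0.1). Other arrays did so by -0.47 to 0.38 (60 pairs, 15 of them over 0.1). Every same-numbered pair was over 0.1 between control and 20 ppm (lowest r = 0.165) and between 500 and 2500 ppm (lowest r = 0.289). Between other diets some were and some were not, or none was. Control mouse 3 gave 0.38 with 20 ppm mouse 2 and 0.165 with 20 ppm mouse 3, while control mouse 1 gave 0.61 with 20 ppm mouse 1.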
